A study of Mus musculus with 12 samples.

Results

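The 10 genes described here are the cyclin-dependent kinases *Cdk1*, *Cdk2*, *Cdk4* and *Cdk6* and the cyclins *Ccna2*, *Ccnb1*, *Ccnb2*, *Ccnd1*, *Ccne1* and *Ccne2*. They were chosen by symbol among the 47069 genes of the deposited expression table, and each symbol was found there once. RNA of livers and of isolated hepatocytes was sequenced at postnatal day 14 (P14) from wild type (WT) mice and from mice whose *Cdk1* gene is deleted in the liver (*Cdk1* Liv-/-). The wider study is about livers whose hepatocytes are kept from dividing. There are 3 libraries in each of 4 groups, which are isolated hepatocytes of either genotype and whole liver of either genotype. *Cdk1* Liv-/- mice came from a cross of *Cdk1* flox/flox with Albumin-Cre mice, and the animals of every group were kept on standard diet in specific pathogen-free housing. Albumin-Cre acts in cells that use the albumin promoter, which are hepatocytes and their precursors, so blood, endothelial, stellate and Kupffer cells keep an intact *Cdk1* gene. Values are FPKM (fragments per kilobase of transcript, scaled to the number of mapped reads), which are per length and so allow levels of different genes to be set side by side, and they say nothing of protein or kinase activity. The table gives no read counts. From the spacing of the lowest values, 1 FPKM on 1 kb of transcript was estimated to stand for 34.7 to 49.9 reads in the 12 libraries. All 10 genes passed the filter on low values, a mean of at least 0.1 FPKM over the 12 libraries.

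Cyclin-dependent kinases are inactive alone and gain activity when a cyclin binds them. In the textbook scheme CDK4 and CDK6 act with D-type cyclins in G1, CDK2 acts with cyclin E and then cyclin A around the start of DNA synthesis, and CDK1 acts with cyclins A and B to bring cells into mitosis. Hepatocytes of young mice still divide and increasingly become polyploid, as they copy their genome without a full division, and in mice CDK2 can be done without in most tissues while CDK1 cannot.

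On the mouse genome mm10, in GENCODE M21, 3 of the kinases lie on chromosome 10. *Cdk1* (ENSMUSG00000019942) is at chr10:69335146-69352938 on the minus strand, *Cdk2* (ENSMUSG00000025358) at chr10:128697939-128705031 on the minus strand and *Cdk4* (ENSMUSG00000006728) at chr10:127063534-127067920 on the plus strand. *Cdk6* (ENSMUSG00000040274) is at chr5:3341485-3531008 on the plus strand. Among the mitotic cyclins, *Ccna2* (ENSMUSG00000027715) is at chr3:36564865-36572150, *Ccnb1* (ENSMUSG00000041431) at chr13:100778650-100786570 and *Ccnb2* (ENSMUSG00000032218) at chr9:70407692-70421547, each on the minus strand. *Ccnd1* (ENSMUSG00000070348) is at chr7:144929931-144939925 and *Ccne1* (ENSMUSG00000002068) at chr7:38097984-38107534, both on the minus strand, and *Ccne2* (ENSMUSG00000028212) is at chr4:11191351-11204779 on the plus strand. Exons of *Cdk2*, *Cdk4*, *Cdk6*, *Ccna2*, *Ccnd1* and *Ccne2* overlap those of a gene on the other strand, of which *Tspan31*, at the end of *Cdk4*, was the most abundant at 80.6 to 115 FPKM. The libraries were made with a stranded kit, but whether the strand was used when reads were assigned is not stated. *Ccnb1* and *Ccnb2* each have a processed pseudogene, listed at no more than 0.42 FPKM for *Ccnb1-ps* and 1.01 FPKM for *Ccnb2-ps*, so little of the signal of these 2 cyclins was assigned to the copies.

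The piece of *Cdk1* that Cre removes is exon 3, which is shown because it sets what an FPKM of this gene can and cannot tell. It is 157 bp long and lies at chr10:69346075-69346231 on the minus strand, as the exon of that number among the 8 of the GENCODE transcript used. All of it is coding, and its length leaves a remainder of 1 when divided by 3.
*Cdk1* exon 3: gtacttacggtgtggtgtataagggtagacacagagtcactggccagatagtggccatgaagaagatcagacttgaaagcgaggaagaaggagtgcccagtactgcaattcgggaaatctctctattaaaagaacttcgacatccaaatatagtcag
Exon 3 makes up 17.6% of the coding sequence of 891 bp but 3.6% of the transcript of 4375 bp. The last exon alone holds 78.9% of the transcript. A transcript without exon 3 would still be counted through its other exons, so *Cdk1* values here include RNA of the deleted gene, if it is made and kept, together with intact RNA from other cells. The gene table cannot tell these 2 apart.

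The stretches before the starts of *Cdk1*, *Ccnb1* and *Ccnb2* are shown because these 3 genes are the ones that changed in both compartments under each scaling that was tried, *Cdk1* downward and the cyclins upward. The sequences are from RefSeq on GRCm38.p6, where 7 of the 10 genes have an entry and *Ccna2*, *Ccnd1* and *Ccne2* have none. The 250 bases before each start were searched on both strands for TTTGAA (the core of the CHR element of genes of late cell cycle), for CCAAT, and for the E2F-like words TTTCCCGC, TTTCGCGC, TTTGCCGC and TTTGGCGC. Capitals mark the matches, and a CCAAT on the other strand reads ATTGG. The stretches printed end before the first exon in GENCODE. They lie at chr10:69352939-69353162 for *Cdk1*, chr13:100786571-100786736 for *Ccnb1* and chr9:70421555-70421804 for *Ccnb2*, each on the minus strand.
*Cdk1*: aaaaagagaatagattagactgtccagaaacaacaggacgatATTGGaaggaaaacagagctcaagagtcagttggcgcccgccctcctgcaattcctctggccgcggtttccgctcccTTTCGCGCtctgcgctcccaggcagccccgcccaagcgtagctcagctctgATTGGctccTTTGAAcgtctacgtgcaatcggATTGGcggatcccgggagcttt
*Ccnb1*: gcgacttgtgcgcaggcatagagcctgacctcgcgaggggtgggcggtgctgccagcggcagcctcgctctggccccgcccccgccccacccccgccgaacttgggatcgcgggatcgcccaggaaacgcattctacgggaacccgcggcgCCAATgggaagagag
*Ccnb2*: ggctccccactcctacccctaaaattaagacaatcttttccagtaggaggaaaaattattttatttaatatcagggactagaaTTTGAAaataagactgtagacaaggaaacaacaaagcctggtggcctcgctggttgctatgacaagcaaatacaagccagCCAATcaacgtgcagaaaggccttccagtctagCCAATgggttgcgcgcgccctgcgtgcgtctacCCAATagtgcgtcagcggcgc
In the full 250 bases *Cdk1* has 2 matches to TTTGAA, 3 to CCAAT and 1 to an E2F word, of which 1 TTTGAA, 15 to 10 bases before the RefSeq start, lies past the end of the stretch printed. *Ccnb2* has 1 TTTGAA and 3 CCAAT, the latter 87 to 83, 54 to 50 and 21 to 17 bases before the start. *Ccnb1* has 2 CCAAT, 99 to 95 and 67 to 63 bases before the start, of which the second lies past the end of its printed stretch, and no TTTGAA in this window. Of the others, *Cdk2* has 1 CCAAT and 1 E2F word and *Cdk4*, *Cdk6* and *Ccne1* have no match, though the whole window of *Cdk6* lies within GENCODE exons and so past the start of that gene in GENCODE. Among 32851 mouse promoters of the same length, 16.0% hold TTTGAA, 33.8% hold CCAAT, 1.9% hold an E2F word and 1.5% hold TTTGAA together with at least 2 CCAAT, as *Cdk1* and *Ccnb2* do. A match is a run of letters and not a measured site.

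Before the values, 2 libraries stand apart. In *Cdk1* Liv-/- whole liver replicate 3, *Xist* was at 158 FPKM and *Ddx3y*, *Eif2s3y*, *Uty* and *Kdm5d* were at 0, while *Xist* was between 0 and 0.14 FPKM in the other 11 libraries and the Y-linked genes were present in them. The study's methods speak of male mice only. WT hepatocyte replicate 3 lay at -8 on the first principal component, between the other hepatocyte libraries at -86.9 to -59.2 and the WT whole livers at 8.9 to 27.9, and its summed Kupffer, stellate, endothelial and erythroid markers were the highest of the hepatocyte libraries. Results are therefore also given without these libraries where a call changes, apart from the cell type markers, whose calls were not repeated without them. The study's methods give at least 3 biological replicates for every experiment. Nothing in the labels says that the 3 libraries of a group are separate animals, so p-values here measure the spread between samples. Bulk RNA cannot tell fewer cells that express a gene from less of its RNA per cell.

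Deletion of *Cdk1* went with less *Cdk1* RNA and more cyclin B RNA in both compartments, while *Cdk2* did not pass with limma in either. In isolated hepatocytes 3 of the 10 genes were higher (*Ccnb1*, *Ccnb2* and *Ccnd1*), where 12.1% of all 17386 genes tested were, and 1 was lower (*Cdk1*), where 6.61% were. In whole liver 7 of the 10 were higher (*Cdk4*, *Cdk6*, *Ccna2*, *Ccnb1*, *Ccnb2*, *Ccnd1* and *Ccne1*), where 38% of all genes were, and again *Cdk1* was the 1 that was lower, where 7.53% were. These shares of all genes move with the libraries used. With each library left out they were 6.65% to 9.33% higher and 2.31% to 7.04% lower in hepatocytes, and 25.9% to 35.6% and 4.94% to 7.45% in whole liver, with the fewest calls without WT replicate 1 of either compartment (8.97% in all, against 18.7%, and 30.9%, against 45.6%). With the replicate number as a block the hepatocyte shares were 6.03% and 2.35%. The threshold for these calls was an adjusted p of 0.1 from limma, two-sided and adjusted over all genes tested. The median log2 change of the 10 genes was 0.23 in hepatocytes and 0.45 in whole liver, against 0.05 and 0.18 for all genes. The whole liver median of all genes moves by -0.17 when FPKM are divided by median-ratio size factors, so changes there are also given relative to that median. With size factors 3 of the 10 genes are called higher in whole liver (*Ccnb1*, *Ccnb2* and *Ccne1*) and 2 lower (*Cdk1* and *Ccne2*), where 18% of all genes are higher and 16.3% lower. Without WT whole liver replicate 1, 5 are called (*Cdk1*, *Ccna2*, *Ccnb1*, *Ccnb2* and *Ccne1*). By q-values from a two-sample test, the kind of test that the study's methods name but here on the 17386 genes and so not a repeat of its calls, 9 are called there, as *Cdk2* joins as higher, where 49.5% of all genes are higher.

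**Figure D1:**
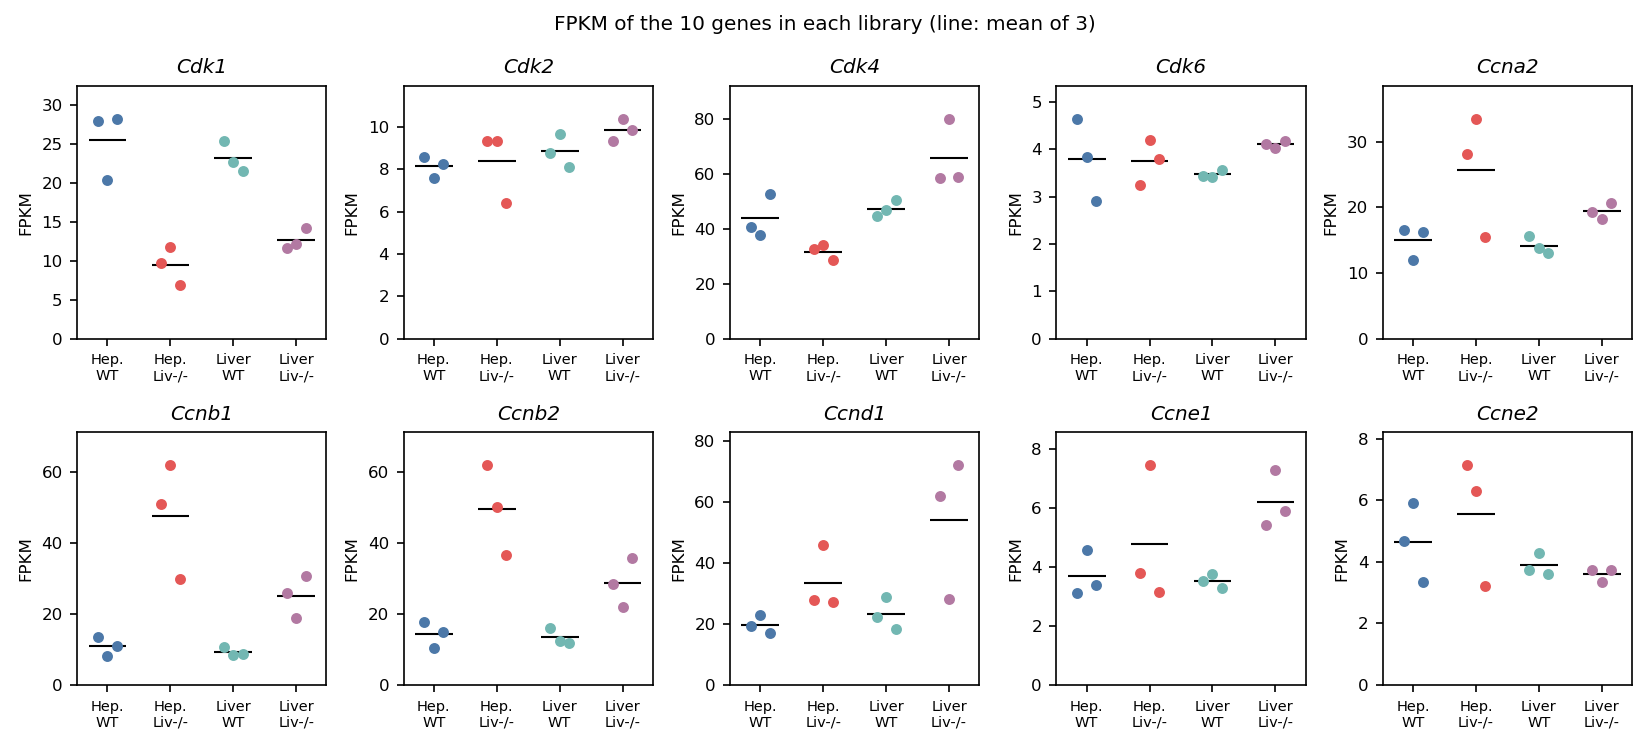
FPKM of the 10 genes on the vertical axes, each starting at 0, with a point for each of the 12 libraries and a line at the mean of 3, in WT and *Cdk1* Liv-/- isolated hepatocytes (Hep.) and whole liver (Liver). *Cdk1* lies between 6.87 and 14.2 FPKM in the 6 *Cdk1* Liv-/- libraries and between 20.4 and 28.2 FPKM in the 6 WT libraries, and *Ccnb1* and *Ccnb2* are higher in each *Cdk1* Liv-/- library than in any WT library.

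*Cdk1* RNA, counted over all exons, was reduced and not absent. By qPCR the study found hardly any *Cdk1* mRNA in *Cdk1* Liv-/- hepatocytes of this age. Its staining for the deleted exon left hepatocytes unmarked and stayed in interstitial cells, and it detected no CDK1 protein in the hepatocytes. FPKM over all exons do not give the share of intact *Cdk1* RNA left in hepatocytes. In isolated hepatocytes *Cdk1* was at 27.9, 20.4 and 28.2 FPKM in the WT libraries and at 9.68, 11.8 and 6.87 FPKM in the *Cdk1* Liv-/- libraries. Every *Cdk1* Liv-/- library lay below every WT library, and the lowest of them still held *Cdk1* at a level near that of *Cdk2*. The means were 25.5 ± 4.41 and 9.45 ± 2.47 FPKM (SD, n = 3 each). The limma fit gave 0.379 of the WT level, a log2 change of -1.40 (standard error 0.22, adjusted p = 0.0148), which is not the ratio of these means. In whole liver *Cdk1* was at 25.3, 22.7 and 21.5 FPKM in WT and at 11.7, 12.1 and 14.2 FPKM in *Cdk1* Liv-/-. Here too the groups did not overlap, and the means were 23.2 ± 1.95 and 12.6 ± 1.35 FPKM (SD, n = 3 each). The log2 change was -0.85 (standard error 0.10, adjusted p = 0.00353), which is a ratio of 0.554. Relative to the median of all genes the whole liver change was -1.03. Without the *Cdk1* Liv-/- library that held *Xist* it was -0.93, and without WT hepatocyte replicate 3 the hepatocyte change was -1.32 (adjusted p = 0.0516). The order of the 4 groups was WT hepatocytes, WT whole liver, *Cdk1* Liv-/- whole liver and *Cdk1* Liv-/- hepatocytes, where ranges overlapped within each genotype and not between genotypes.

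*Cdk2*, the kinase of cyclins E and A, did not pass with limma in either compartment. It was at 8.59, 7.60 and 8.25 FPKM in WT hepatocytes and at 9.36, 9.34 and 6.43 FPKM in *Cdk1* Liv-/- hepatocytes. In whole liver it was at 8.78, 9.70 and 8.12 FPKM in WT and at 9.35, 10.4 and 9.85 FPKM in *Cdk1* Liv-/-. The groups overlapped in both compartments. The log2 change was 0.02 in hepatocytes (95% interval -0.38 to 0.42, adjusted p = 0.952) and 0.15 in whole liver (adjusted p = 0.208), and with size factors both signs turned, to -0.05 and -0.06. In whole liver the two-sample test with q-values called it higher (0.15, adjusted p = 0.0902, the lowest of a range up to 0.53 over the alternatives). The interval in hepatocytes leaves room for a change of moderate size either way.

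The ratio of *Cdk1* RNA to *Cdk2* RNA was lower in each *Cdk1* Liv-/- library than in any WT library. FPKM of *Cdk1* divided by FPKM of *Cdk2* was 3.25, 2.68 and 3.41 in WT hepatocytes and 1.03, 1.26 and 1.07 in *Cdk1* Liv-/- hepatocytes. In whole liver the ratio was 2.88, 2.34 and 2.65 in WT and 1.25, 1.16 and 1.44 in *Cdk1* Liv-/-. In the WT libraries *Cdk1* RNA was the more abundant by more than 2-fold, while in *Cdk1* Liv-/- hepatocytes the ranges of the 2 kinases overlapped and in *Cdk1* Liv-/- whole liver *Cdk1* still lay above *Cdk2* without overlap. The difference in mean log2 ratio was -1.47 in hepatocytes and -1.03 in whole liver, and the exact permutation test gave p = 0.1 in each, which is the smallest that 3 libraries against 3 can give. *Cdk1*, the deleted gene, changed by -1.40 and -0.85 alone, which lowers this ratio by itself, so the ratio largely restates that fall.

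*Cdk4* and *Cdk6*, the partners of D-type cyclins, differed in level by about an order of magnitude, and *Cdk4* was the most abundant of the 10 genes in WT hepatocytes. It was at 40.8, 37.8 and 52.8 FPKM in WT hepatocytes and at 32.8, 33.9 and 28.5 FPKM in *Cdk1* Liv-/- hepatocytes. The whole livers had it at 44.6, 46.9 and 50.7 FPKM in WT and at 58.6, 80.1 and 59.0 FPKM in *Cdk1* Liv-/-. The *Cdk1* Liv-/- libraries thus lay below all WT libraries in hepatocytes and above all of them in whole liver. The hepatocyte difference (log2 change -0.45, standard error 0.14, adjusted p = 0.102) missed the threshold, and it passed with size factors (-0.52, adjusted p = 0.0552), with a filter at 1 FPKM, in 1 fit of all 12 libraries and without WT replicate 2 (-0.55, adjusted p = 0.0978), with adjusted p between 0.0482 and 0.244 over the alternatives. In whole liver *Cdk4* was 1.37-fold higher (log2 change 0.46, standard error 0.14, adjusted p = 0.0464), and relative to the median of all genes 0.28. That call was lost with size factors (0.24), without WT replicate 1 (0.41) and without WT replicate 2 (0.45).

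*Cdk6* was held at a low level throughout. It was at 4.64, 3.84 and 2.91 FPKM in WT hepatocytes, at 3.25, 4.20 and 3.79 FPKM in *Cdk1* Liv-/- hepatocytes, at 3.44, 3.42 and 3.57 FPKM in WT whole liver and at 4.10, 4.03 and 4.18 FPKM in *Cdk1* Liv-/- whole liver. The 3 libraries of each whole liver group were so close together that a 1.16-fold difference passed the test there (log2 change 0.21, standard error 0.06, adjusted p = 0.0433). Relative to the median of all genes that difference was 0.03, and the call was lost with size factors (0.02), with the replicate number as a block, in 1 fit of all 12 libraries, without WT replicate 1 (0.20), without WT replicate 2 (0.20) and without *Cdk1* Liv-/- replicate 3 (0.20). In hepatocytes the log2 change was 0.00 (95% interval -0.47 to 0.46, adjusted p = 0.997).

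The B-type cyclins were higher in both compartments, where *Cdk1* was lower. *Ccnb1*, cyclin B1, was at 13.4, 8.11 and 11.1 FPKM in WT hepatocytes and at 50.9, 61.8 and 29.8 FPKM in *Cdk1* Liv-/- hepatocytes. In whole liver it was at 10.7, 8.51 and 8.75 FPKM in WT and at 25.9, 18.9 and 30.8 FPKM in *Cdk1* Liv-/-. Even the lowest *Cdk1* Liv-/- library of each compartment lay above its highest WT library. *Ccnb1* was 4.12-fold higher in hepatocytes (10.9 ± 2.65 against 47.5 ± 16.3 FPKM, SD, n = 3 each), a log2 change of 2.04 (standard error 0.30, adjusted p = 0.0121). In whole liver the same fit gave a 2.58-fold rise, a log2 change of 1.37 (standard error 0.19, adjusted p = 0.00568), or 1.19 above the median of all genes. The mean of *Ccnb1* in whole liver rose from 9.31 ± 1.19 to 25.2 ± 5.96 FPKM (SD, n = 3 each). These folds come from the fit and are not ratios of the means.

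*Ccnb2*, cyclin B2, followed the same order of genotypes. It was at 17.8, 10.4 and 14.9 FPKM in WT hepatocytes and at 61.9, 50.2 and 36.7 FPKM in *Cdk1* Liv-/- hepatocytes. Whole livers had it at 16.2, 12.5 and 11.8 FPKM in WT and at 28.6, 21.9 and 35.9 FPKM in *Cdk1* Liv-/-. Again no *Cdk1* Liv-/- library overlapped a WT library. The rise was 3.37-fold in hepatocytes (log2 change 1.75, standard error 0.25, adjusted p = 0.0113) and 2.07-fold in whole liver (log2 change 1.05, standard error 0.20, adjusted p = 0.0145), the latter 0.87 above the median of all genes. Both B-type cyclins were called in each compartment under each of the 17 alternatives tried. Among the *Cdk1* Liv-/- hepatocyte libraries replicate 3 held the least of 9 of the 10 genes, all but *Cdk6*.

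*Ccna2*, cyclin A2, which pairs with both CDK2 and CDK1, passed as higher in whole liver and not in hepatocytes. It was at 16.6, 12.0 and 16.3 FPKM in WT hepatocytes and at 28.2, 33.5 and 15.5 FPKM in *Cdk1* Liv-/- hepatocytes. In whole liver it was at 15.6, 13.8 and 13.1 FPKM in WT and at 19.2, 18.3 and 20.6 FPKM in *Cdk1* Liv-/-. The hepatocyte groups overlapped through *Cdk1* Liv-/- replicate 3, and the whole liver groups did not overlap. The hepatocyte difference did not pass (log2 change 0.71, 95% interval -0.01 to 1.42, adjusted p = 0.179), and without that replicate it did (1.03, adjusted p = 0.038, and between 0.038 and 0.368 over the alternatives), as it did in 1 fit of all 12 libraries. In whole liver *Ccna2* was 1.36-fold higher (log2 change 0.44, standard error 0.08, adjusted p = 0.0136), 0.26 above the median of all genes, and the call was lost with size factors (0.23, adjusted p = 0.123, in a range of 0.00898 to 0.185) and in 1 fit of all 12 libraries.

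**Figure D2:**
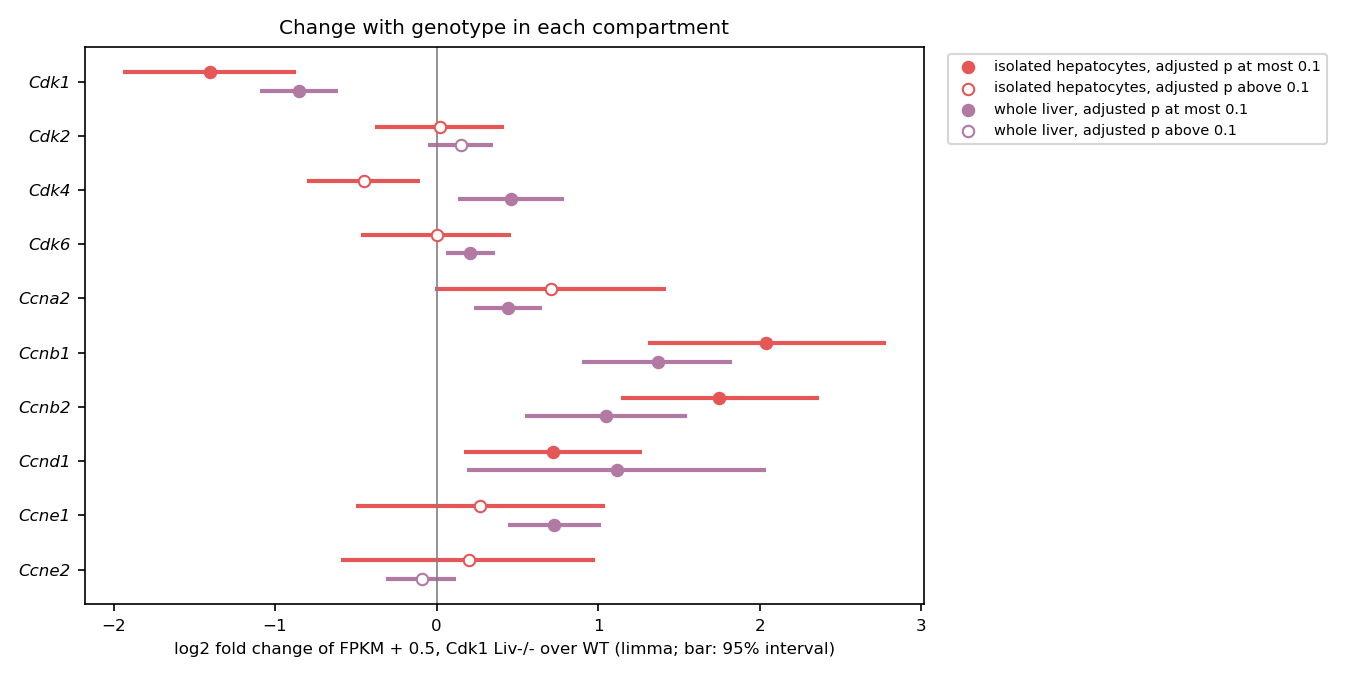
Log2 fold change of FPKM + 0.5, *Cdk1* Liv-/- over WT, on the horizontal axis for each of the 10 genes, with the limma 95% interval as a bar, in isolated hepatocytes and in whole liver (n = 3 libraries a group), filled where the adjusted p was at most 0.1. *Cdk1* lies left of 0 at -1.40 and -0.85 and *Ccnb1* right of it at 2.04 and 1.37, and with size factors *Cdk4*, *Cdk6*, *Ccna2* and *Ccnd1* are no longer called in whole liver, *Cdk2* changes sign in both compartments and *Cdk4* is called lower in hepatocytes.

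The sum of these 3 cyclins per *Cdk1* brings both movements into 1 number for each library. FPKM of *Ccna2*, *Ccnb1* and *Ccnb2* together, divided by FPKM of *Cdk1*, was 1.71, 1.50 and 1.50 in WT hepatocytes and 1.68, 1.53 and 1.56 in WT whole liver. It was 14.6, 12.3 and 11.9 in *Cdk1* Liv-/- hepatocytes and 6.32, 4.89 and 6.16 in *Cdk1* Liv-/- whole liver. The 6 WT libraries thus shared nearly the same ratio whatever their compartment, and the *Cdk1* Liv-/- hepatocytes lay above the *Cdk1* Liv-/- whole livers without overlap. By the difference in mean log2 ratio, the ratio rose 8.23-fold in hepatocytes (means 1.57 ± 0.123 and 12.9 ± 1.41, SD, n = 3 each, a log2 difference of 3.04) and 3.62-fold in whole liver (means 1.59 ± 0.0773 and 5.79 ± 0.781, SD, n = 3 each, a log2 difference of 1.86), with p = 0.1 in each from the exact permutation test, again the smallest it can give. A ratio within a library does not depend on how libraries are scaled, and the fall of *Cdk1*, the deleted gene, raises it by itself.

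*Ccna2* alone per *Cdk1* was the most even of the ratios in WT. It was 0.595, 0.591 and 0.578 in WT hepatocytes and 0.617, 0.606 and 0.608 in WT whole liver, although *Cdk1* itself ranged from 20.4 to 28.2 FPKM in these libraries. In *Cdk1* Liv-/- it was 2.91, 2.84 and 2.26 in hepatocytes and 1.65, 1.51 and 1.46 in whole liver. In replicate 3 of *Cdk1* Liv-/- hepatocytes *Ccna2* lay among the WT values, so there the higher ratio restates the lower *Cdk1*. The log2 difference of the ratio was 2.17 in hepatocytes and 1.33 in whole liver, both with the smallest p of the exact permutation test, 0.1.

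**Figure D3:**
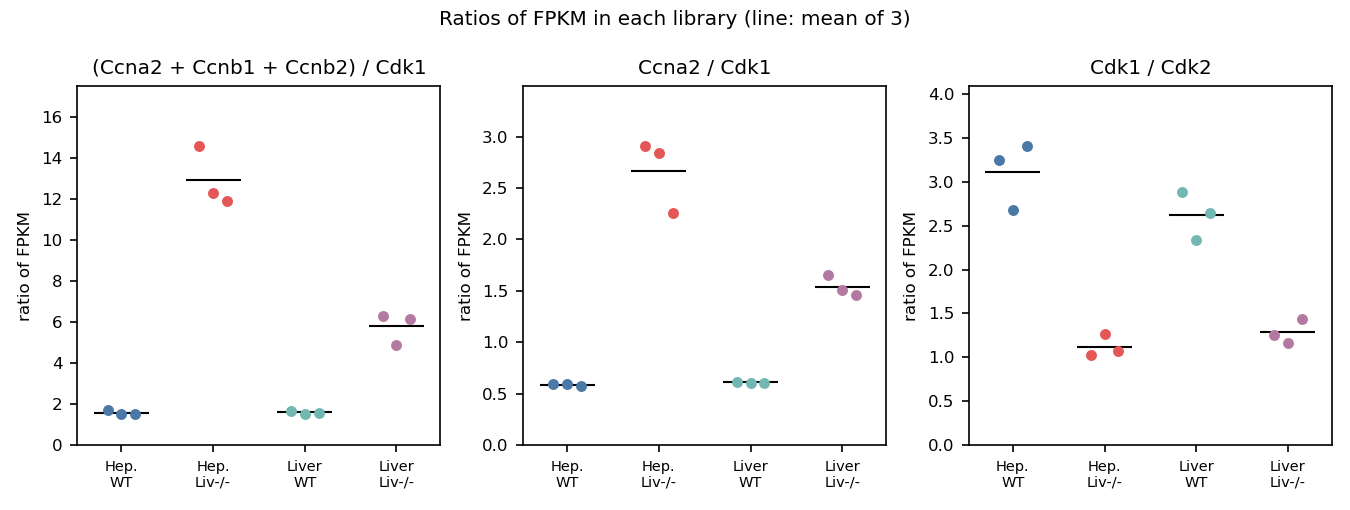
Ratios of FPKM on the vertical axes, each starting at 0, with a point for each of the 12 libraries and a line at the mean of 3 in each group: the 3 mitotic cyclins per *Cdk1*, *Ccna2* per *Cdk1*, and *Cdk1* per *Cdk2*. The first is between 1.50 and 1.71 in the 6 WT libraries, between 4.89 and 6.32 in *Cdk1* Liv-/- whole liver and between 11.9 and 14.6 in *Cdk1* Liv-/- hepatocytes.

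*Ccnd1*, cyclin D1, the cyclin of G1 that answers to growth signals, was higher in *Cdk1* Liv-/- with a wide spread. It was at 19.4, 23.1 and 16.9 FPKM in WT hepatocytes and at 27.8, 45.8 and 27.2 FPKM in *Cdk1* Liv-/- hepatocytes. The whole livers had it at 22.3, 28.9 and 18.5 FPKM in WT and at 62.0, 28.1 and 72 FPKM in *Cdk1* Liv-/-. The hepatocyte groups did not overlap, while in whole liver *Cdk1* Liv-/- replicate 2 lay just below the highest WT library. The difference was 1.64-fold in hepatocytes (log2 change 0.72, standard error 0.23, adjusted p = 0.0998) and 2.17-fold in whole liver (log2 change 1.12, standard error 0.38, adjusted p = 0.0668, 0.93 above the median of all genes). The hepatocyte call sat at the threshold and was lost without any 1 of the 6 libraries (0.71, 0.83 and 0.61 without WT replicates 1, 2 and 3, and 0.83, 0.47 and 0.85 without *Cdk1* Liv-/- replicates 1, 2 and 3) with size factors (0.64), with no filter, with a pseudocount of 1, with equal sums of FPKM, in 1 fit of all 12 libraries and with the two-sample test. The whole liver call was lost with size factors (0.90), with no filter, with the replicate number as a block, without WT replicates 1 (1.10) or 3 (0.97) and without *Cdk1* Liv-/- replicates 1 (0.96) or 3 (0.86).

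Of the E-type cyclins, which act with CDK2, neither passed in hepatocytes, and *Ccne1* passed as higher in whole liver. *Ccne1* was at 3.11, 4.56 and 3.38 FPKM in WT hepatocytes and at 3.79, 7.44 and 3.15 FPKM in *Cdk1* Liv-/- hepatocytes. In whole liver it was at 3.53, 3.76 and 3.28 FPKM in WT and at 5.43, 7.28 and 5.89 FPKM in *Cdk1* Liv-/-. The groups overlapped in hepatocytes and not in whole liver. *Ccne1* was 1.66-fold higher in whole liver (log2 change 0.73, standard error 0.12, adjusted p = 0.00864, 0.55 above the median of all genes) and did not pass in hepatocytes (log2 change 0.27, standard error 0.32, adjusted p = 0.614), where it was -0.06 without *Cdk1* Liv-/- replicate 2.

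*Ccne2* was at 4.68, 5.90 and 3.35 FPKM in WT hepatocytes, at 7.13, 6.30 and 3.20 FPKM in *Cdk1* Liv-/- hepatocytes, at 3.74, 4.29 and 3.62 FPKM in WT whole liver and at 3.73, 3.35 and 3.73 FPKM in *Cdk1* Liv-/- whole liver. The groups overlapped in both compartments. The log2 change was 0.20 in hepatocytes (adjusted p = 0.732; -0.01 without *Cdk1* Liv-/- replicate 1) and -0.09 in whole liver (adjusted p = 0.442), where with size factors it passed as lower (-0.29, adjusted p = 0.0539, and between 0.0539 and 0.833 over the alternatives).

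Between the compartments, none of the 10 genes was called in WT and 3 were in *Cdk1* Liv-/-, where many more of all genes were called as well. In WT, limma called 0 of the 10 genes between hepatocytes and whole liver, and 0 had an unadjusted p under 0.05, where 0.104% of all genes were called higher in hepatocytes and 1.42% lower. That share, 1.52% in all, was 17.7% without WT hepatocyte replicate 3 and between 0.00575% and 0.374% without any other library, while in *Cdk1* Liv-/- 44.7% were called and 32.9% to 43.7% with each library left out. Log2 differences in WT, hepatocytes minus whole liver, ran from -0.21 for *Ccnd1* to 0.20 for *Ccne2*, and from -0.09 to 0.32 for the same genes with size factors, where *Cdk2* turned from -0.11 to 0.01. With each library left out *Ccnd1* was between -0.36 (without WT whole liver replicate 3) and -0.05 (without replicate 2), and *Ccne2* between 0.03 (without WT hepatocyte replicate 2) and 0.40 (without replicate 3). Without WT hepatocyte replicate 3, which stands apart toward whole liver, 1 gene was called, *Cdk4*, as lower in hepatocytes (-0.27, adjusted p = 0.0952). In *Cdk1* Liv-/-, *Ccnb1* and *Ccnb2* were higher in hepatocytes, 2 of the 10 genes where 8.86% of all genes were, and *Cdk4* was lower, 1 of the 10 where 35.9% were. With size factors the shares of all genes were 19.9% higher and 21.5% lower. The median of all genes in that comparison was -0.19 and moves by 0.20 with size factors.

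For *Cdk4* the difference between compartments in *Cdk1* Liv-/- was -1.03 in log2 units (standard error 0.15, adjusted p = 0.00397), or -0.84 relative to the median of all genes. The call held under each of the 16 alternatives. *Ccnb1* differed by 0.87 (standard error 0.30, adjusted p = 0.0684), with overlapping groups, and *Ccnb2* by 0.77 (standard error 0.24, adjusted p = 0.0524), with groups that did not overlap. The calls of both cyclins were lost without *Cdk1* Liv-/- hepatocyte replicates 1 (0.79 for *Ccnb1* and 0.60 for *Ccnb2*) or 2 (0.65 and 0.75), and without replicates 1 (0.90 and 0.78) or 2 (0.68 and 0.59) of *Cdk1* Liv-/- whole liver, and also with the replicate number as a block (adjusted p = 0.143 and 0.107) and with no filter (adjusted p = 0.149 and 0.118), in ranges of 0.0243 to 0.188 and 0.0268 to 0.141 over the alternatives. Other genes joined when 1 library was left out: *Ccna2* (0.65) and *Ccne2* (0.81) without hepatocyte replicate 3, *Cdk1* (-0.60) and *Ccne1* (-0.75) without hepatocyte replicate 2, and *Ccnd1* (-1.02) without whole liver replicate 2. *Ccne2* also joined with size factors (0.73), and *Cdk1* in 1 fit of all 12 libraries (-0.43).

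Whether the change with genotype itself differed between the compartments was tested as an interaction, the change in hepatocytes minus that in whole liver. Of the 10 genes 1 passed, *Cdk4*, as lower, where 7.49% of all genes were called lower and 2.35% higher. With size factors *Cdk4* was again the 1 gene called, where 2.82% of all genes were lower and 3.09% higher. With each library left out the share called in all, 9.85%, ran from 0.449% (without WT whole liver replicate 1) to 15.2% (without WT hepatocyte replicate 2), and it was below 9.85% without any other library. The *Cdk4* difference was -0.91 (standard error 0.21, adjusted p = 0.0544), or -0.80 relative to the median of all genes of -0.11, which moves by 0.11 with size factors. The call was lost without WT whole liver replicate 1 (-0.86, adjusted p = 0.142) or replicate 2 (-0.90, adjusted p = 0.109), with adjusted p between 0.0216 and 0.142 over the alternatives. *Ccnb1* (0.68, 95% interval -0.16 to 1.52, adjusted p = 0.312), *Ccnb2* (0.70, 95% interval -0.06 to 1.47, adjusted p = 0.248) and *Cdk1* (-0.55, 95% interval -1.12 to 0.02, adjusted p = 0.224) had larger changes in hepatocytes, but the differences did not pass. The sign of *Cdk2* turned with size factors, from -0.13 to 0.01, and *Ccne1* passed without *Cdk1* Liv-/- hepatocyte replicate 2 (-0.79). Without both libraries that stand apart, *Cdk4* was at -0.84 (adjusted p = 0.0935) and still the 1 gene called.

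The order of the genes by level was similar in both WT groups and different in *Cdk1* Liv-/-. In both WT groups *Cdk4* was on top, at 43.8 ± 7.94 FPKM in hepatocytes and 47.4 ± 3.08 FPKM in whole liver (SD, n = 3 each), and overlapped with no other of the 10 genes. *Cdk1* and *Ccnd1* came next and overlapped with each other, followed by *Ccna2*, *Ccnb2*, *Ccnb1* and *Cdk2*, and *Ccne2*, *Cdk6* and *Ccne1* were lowest. In *Cdk1* Liv-/- hepatocytes *Ccnb2* at 49.6 ± 12.6 FPKM and *Ccnb1* at 47.5 ± 16.3 FPKM (SD, n = 3 each) had the highest means, though each neighbour from *Ccnb2* through *Ccnd1* and *Cdk4* to *Ccna2* overlapped the next. *Cdk1* lay below *Ccna2* without overlap and overlapped with *Cdk2*. In *Cdk1* Liv-/- whole liver *Cdk4* at 65.9 ± 12.3 FPKM and *Ccnd1* at 54.0 ± 23.0 FPKM (SD, n = 3 each) were highest and overlapped, and *Cdk1* had fallen below all 3 mitotic cyclins there as well. Across the 4 groups, neighbours in the order of levels overlapped throughout for *Cdk2*, *Cdk6*, *Ccnd1*, *Ccne1* and *Ccne2*.

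Genes that hold these kinases in check moved in both directions. Beside the counts of this and the following lists stand the shares over all genes, 12.1% upward and 6.61% downward in hepatocytes, and 38% and 7.53% in whole liver (18% and 16.3% with size factors). Among the CDK inhibitors, 6 of the 7 on the list were tested (*Cdkn2a* did not pass the filter). In hepatocytes 2 of the 6 were higher and 1 lower, with a median log2 change of 0.40, and in whole liver 3 were higher and 1 lower, with a median of 0.31, or 2 higher and a median of 0.10 with size factors, and 2 were called in all without WT whole liver replicate 1 or 2. *Cdkn1a*, which encodes the inhibitor p21 and is a known target of p53, was at 21, 22.7 and 30.4 FPKM in WT hepatocytes and at 59.2, 47.6 and 46.8 FPKM in *Cdk1* Liv-/- hepatocytes. Whole livers had it at 7, 8.72 and 18 FPKM in WT and at 38.4, 50.6 and 54.8 FPKM in *Cdk1* Liv-/-. No library of 1 genotype overlapped the other in either compartment. The log2 change was 1.05 in hepatocytes (standard error 0.16, adjusted p = 0.0147) and 2.14 in whole liver (standard error 0.35, adjusted p = 0.00875), and their difference did not pass (-1.10, adjusted p = 0.138).

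*Cdkn1c*, which encodes the inhibitor p57, fell. It was at 12.1, 15.6 and 12.6 FPKM in WT hepatocytes and at 4.82, 6.02 and 2.74 FPKM in *Cdk1* Liv-/- hepatocytes, a log2 change of -1.52 (standard error 0.27, adjusted p = 0.0207). In whole liver it went from 14.2 ± 0.834 to 9.03 ± 3.05 FPKM (SD, n = 3 each, log2 change -0.67, adjusted p = 0.0676), a call that was kept without *Cdk1* Liv-/- replicate 3 and lost without any other of the 6 libraries, at -0.72 to -0.45, and with no filter or the replicate number as a block. The D-cyclin kinase inhibitor *Cdkn2b* was near the limit of detection in WT, at 0.0333 ± 0.0231 FPKM in hepatocytes and 0.0800 ± 0.0361 FPKM in whole liver, and reached 0.220 ± 0.0361 and 0.760 ± 0.0755 FPKM in *Cdk1* Liv-/- (SD, n = 3 each, adjusted p = 0.0269 and 0.00109). *Cdkn1b*, for p27, passed in whole liver (0.34, adjusted p = 0.0495, and 0.13 with size factors, where the call was lost, as it was with the replicate number as a block and without WT replicate 1 at 0.33 or 2 at 0.31) and not in hepatocytes (0.32, adjusted p = 0.204, though it passed in 1 fit of all 12 libraries). *Cdkn2c* (0.61 and 0.27) and *Cdkn2d* (0.37 and 0.20) passed in neither compartment, though *Cdkn2c* passed in hepatocytes without *Cdk1* Liv-/- replicate 3 (0.92) and in 1 fit of all 12 libraries, and *Cdkn2d* in whole liver with the two-sample test. Their values were also lower in some settings, *Cdkn2c* in hepatocytes at 0.38 without *Cdk1* Liv-/- replicate 2 and in whole liver at 0.11 without WT replicate 3 and 0.07 with size factors, and *Cdkn2d* in hepatocytes at 0.20 without WT replicate 2 and 0.12 without *Cdk1* Liv-/- replicate 2 and in whole liver at 0.13 without WT replicate 2 and 0.00 with size factors.

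Among the enzymes that switch CDK1 on and off by phosphorylation, some on either side of that switch were higher. Of 10 genes of CDK phosphorylation and activation, 5 were higher, 0 lower and 5 not called in hepatocytes, with a median log2 change of 0.68, and 8 were higher and 0 lower in whole liver, with a median of 0.52 (4 higher and a median of 0.32 with size factors). The 5 in hepatocytes became 2 without WT replicate 1 or *Cdk1* Liv-/- replicate 2, 3 without WT replicate 2 or 3 and 1 with the replicate number as a block, and the 8 in whole liver became 5 without WT replicate 1. *Pkmyt1*, a kinase that inhibits CDK1, rose from 4.90 ± 0.255 to 12.9 ± 3.00 FPKM in hepatocytes (SD, n = 3 each, log2 change 1.28, adjusted p = 0.0111) and by 0.67 on the log2 scale in whole liver (adjusted p = 0.0167). *Cdc25a*, a phosphatase that activates cyclin-dependent kinases, rose from 2.79 ± 0.170 to 5.03 ± 0.873 FPKM in hepatocytes (SD, n = 3 each, log2 change 0.74, adjusted p = 0.0336, a call lost with the block) and by 0.61 in whole liver (adjusted p = 0.0117).

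The list of cyclin and inhibitor destruction holds genes that promote it and genes that restrain it. Of its 11 genes, 5 were higher, 0 lower and 6 not called in hepatocytes, with a median of 0.51, and 9 were higher and 0 lower in whole liver, with a median of 0.48 (4 higher and a median of 0.26 with size factors). With the replicate number as a block 3 were higher in hepatocytes. *Ube2c*, the ubiquitin-conjugating enzyme of the anaphase-promoting complex, rose from 17.9 ± 3.09 to 76.4 ± 28.6 FPKM in hepatocytes (SD, n = 3 each, log2 change 2.00, adjusted p = 0.0142) and by 1.48 in whole liver (adjusted p = 0.0051). *Cdc20*, an activator of that complex, rose by 1.79 in hepatocytes (adjusted p = 0.0318, and lost with the block at 0.101, the highest over the alternatives) and by 1.14 in whole liver (adjusted p = 0.0137). *Mad2l1*, which restrains *Cdc20* at the spindle checkpoint, rose by 1.37 and 0.67 (adjusted p = 0.0109 and 0.0168). *Bub1b*, which acts at the same checkpoint, rose by 1.28 in hepatocytes and 0.55 in whole liver (adjusted p = 0.0141 and 0.0479). The whole liver call of *Bub1b* was lost in 6 of the 17 alternatives, at values of 0.35 to 0.71 over all of them.

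*Mastl*, the Greatwall kinase that CDK1 activates and that holds back the phosphatase PP2A in mitosis, rose from 0.947 ± 0.268 to 3.54 ± 0.472 FPKM in hepatocytes (SD, n = 3 each, log2 change 1.49, adjusted p = 0.00724) and from 0.653 ± 0.0808 to 1.40 ± 0.0723 FPKM in whole liver (SD, n = 3 each, log2 change 0.72, adjusted p = 0.00389). Its target *Arpp19* rose by 0.56 and 0.66 on the log2 scale (adjusted p = 0.0258 and 0.00287). Of the 6 genes of the Greatwall and PP2A list, 2 were higher in hepatocytes (median 0.18) and 5 in whole liver (median 0.40), or 3 in whole liver with size factors (median 0.19), and 0 were lower. Of 12 genes of retinoblastoma and MuvB complexes, 4 were higher and 0 lower in hepatocytes (median 0.46), and 3 were higher and 1 lower in whole liver (median 0.22, or 1 higher, 1 lower and a median of 0.02 with size factors). The 4 in hepatocytes became 2 without WT replicate 1 or 2 or *Cdk1* Liv-/- replicate 1, 1 without WT replicate 3 or *Cdk1* Liv-/- replicate 2, and 2 with the replicate number as a block. *Tfdp1*, a partner of E2F factors, was among those higher in both (0.70 and 0.43, adjusted p = 0.0186 and 0.0101). With size factors the whole liver changes were smaller and still called, at 0.21 for *Tfdp1*, 0.44 for *Arpp19*, 0.56 for *Mastl*, 0.46 for *Mad2l1* and *Pkmyt1*, 0.41 for *Cdc25a*, 0.93 for *Cdc20* and 1.26 for *Ube2c*.

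The remaining cyclins and kinases form a pair of further lists, and no test between lists was run. Of 20 other cyclins 19 were tested (*Ccnb3* was not). In hepatocytes 3 were higher and 1 lower, with a median of 0.02 that turns to -0.01 with size factors, and in whole liver 7 were higher and 1 lower, with a median of 0.15 (2 higher, 4 lower and -0.03 with size factors). Calls in hepatocytes fell from 4 to 2 without WT replicate 1 or 3 or *Cdk1* Liv-/- replicate 1 and with the replicate number as a block, and in whole liver from 8 to 5 without WT replicate 1 or 2 or *Cdk1* Liv-/- replicate 3. *Ccng1*, cyclin G1, a known p53 target that is not a partner of CDK1 in mitosis, stood out among them. It rose from 6.49 ± 0.345 to 28.3 ± 4.24 FPKM in hepatocytes (SD, n = 3 each, log2 change 2.03, adjusted p = 0.00114) and from 7.35 ± 0.801 to 24.7 ± 0.632 FPKM in whole liver (SD, n = 3 each, log2 change 1.69, adjusted p = 0.000286). *Ccna1*, the cyclin A of the germ line, rose from 0.103 ± 0.0503 to 1.08 ± 0.135 FPKM in hepatocytes (SD, n = 3 each, adjusted p = 0.00314), a low level beside *Ccna2*. Of 15 other cyclin-dependent kinases 14 were tested (*Cdk15* was not), of which 1 was higher in hepatocytes (*Cdk18*, 0.62, adjusted p = 0.00905), with a median of 0.15, and 9 in whole liver, with a median of 0.27 (2 and 0.07 with size factors), and 0 were lower. Without *Cdk1* Liv-/- replicate 2 there were 2 in hepatocytes, and without WT replicate 1 there were 5 in whole liver. *Cdk7* and *Ccnh*, the kinase and cyclin that activate other cyclin-dependent kinases, stand on 2 of these lists.

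**Figure D4:**
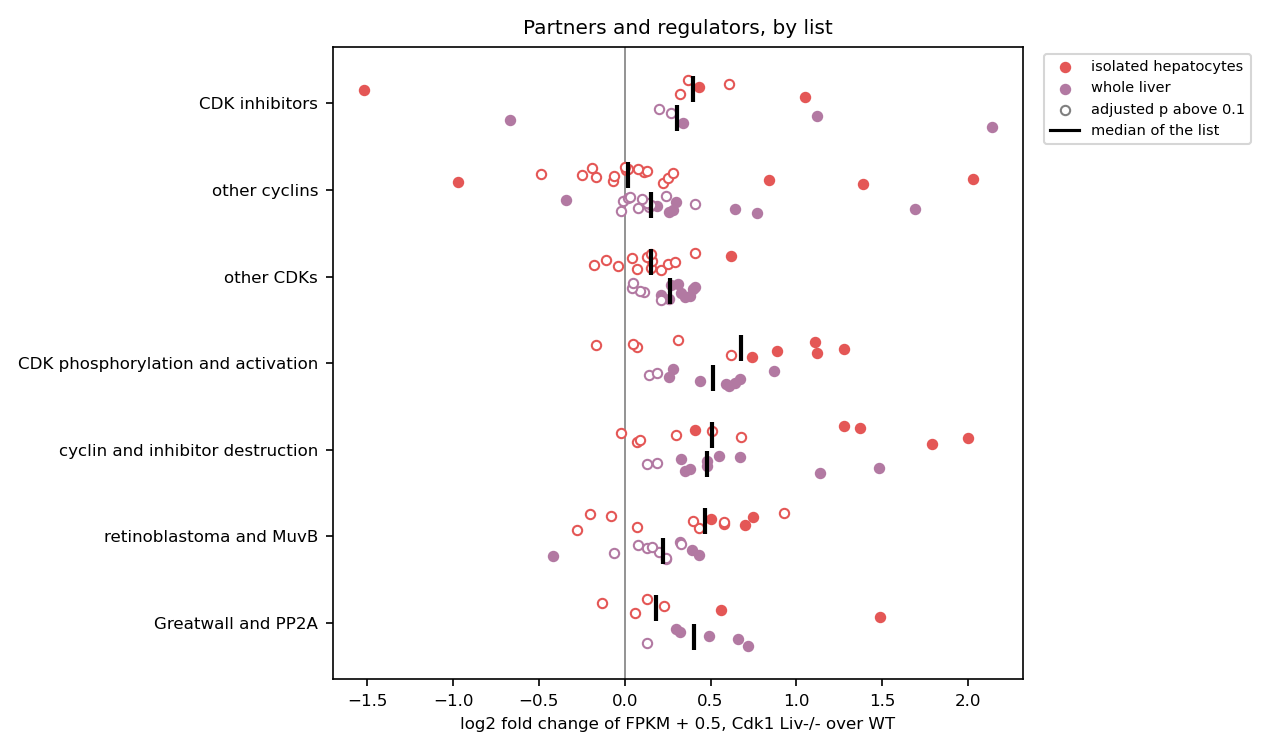
Log2 fold change of FPKM + 0.5, *Cdk1* Liv-/- over WT, on the horizontal axis for each tested gene of the 7 lists of partners and regulators, in isolated hepatocytes and in whole liver (n = 3 libraries a group), filled where the adjusted p from limma was at most 0.1 and with a black line at the median of each list. The medians of CDK phosphorylation and activation lie at 0.68 and 0.52 and those of the other cyclins at 0.02 and 0.15, the latter at -0.01 and -0.03 with size factors.

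The genes whose pattern over the 12 libraries was most like that of 3 of the members are given as a description, by Pearson's r of log2(FPKM + 0.5) over 12272 genes. These libraries form 4 groups, so a high r mostly says that the group means are alike. For *Ccnb1* they were *Kif20a* (0.995), *Nek2* (0.992), *Prc1* (0.99), *Aurka* (0.989) and *Knstrn* (0.989). For *Cdk1* they were *Gjb1* (0.964), *Hao2* (0.953), *Hao1* (0.951), *Agxt* (0.948) and *Prdx4* (0.943), and for *Ccnd1* they were *Inhbe* (0.944), *Gsta4* (0.928), *Rwdd2b* (0.927), *Spryd7* (0.925) and *1810026J23Rik* (0.921).

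The cell types whose RNA each library held also differed between the groups, and the part of this in the results for the 10 genes was not tested. Hepatocyte markers (9 genes, *Alb* the most abundant) summed to 99200, 112000 and 108000 FPKM in WT hepatocytes, 69500, 78200 and 70400 in *Cdk1* Liv-/- hepatocytes, 104000, 102000 and 105000 in WT whole liver and 89300, 84700 and 91200 in *Cdk1* Liv-/- whole liver. They were thus present in quantity in every library, as the labels say, with a lower sum in *Cdk1* Liv-/-. *Alb*, the largest part of that sum, was called in neither compartment (limma adjusted p = 0.376 in hepatocytes and 0.242 in whole liver). The sum therefore does not stand for each marker. Of these 9, 1 was called higher (*Hnf4a*) and 2 lower (*Apoa1* and *Ttr*) in hepatocytes, where 12.1% of all genes were higher and 6.61% lower. In whole liver 0 were higher and 4 lower (*Apoa1*, *Ttr*, *Cyp2f2* and *Serpina1b*), where 38% and 7.53% of all genes were. With size factors the whole liver shares of all genes were 18% and 16.3%, a setting not worked out for the markers.

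Endothelial cells keep *Cdk1*, and their markers were lower in the *Cdk1* Liv-/- hepatocytes than in the WT hepatocytes. Sinusoidal endothelial markers (8 genes, among them *Clec4g*) summed to 112, 75.1 and 204 FPKM in WT hepatocytes and to 49.8, 31 and 35.1 FPKM in *Cdk1* Liv-/- hepatocytes, and 8 of 8 were called lower, where 6.61% of all genes were. Their adjusted p from limma ran from 0.0254 (*Kdr*) to 0.0975 (*Clec4g*). The 204 FPKM is WT replicate 3, which stands apart, and the calls were not repeated without it. In whole liver they summed to 94.3, 112 and 135 FPKM in WT and to 114, 141 and 115 FPKM in *Cdk1* Liv-/-, and 1 of 8 was called higher, where 38% of all genes were. In the interaction 7 of 8 were lower (adjusted p = 0.0439 to 0.0846 from limma), as were 4 of 6 monocyte, 3 of 8 Kupffer cell and 2 of 8 stellate cell markers, where 7.49% of all genes were. Without both libraries that stand apart the share of all genes called fell from 9.85% to 2.6%. The marker calls were not repeated in that setting.

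Kupffer cell markers (8 genes, among them *Cd5l*) summed to 273, 145 and 496 FPKM in WT hepatocytes, 167, 126 and 107 in *Cdk1* Liv-/- hepatocytes, 371, 420 and 426 in WT whole liver and 492, 672 and 527 in *Cdk1* Liv-/- whole liver. Between genotypes 1 of 8 was called lower in hepatocytes, where 6.61% of all genes were, and 3 of 8 higher in whole liver, near the 38% of all genes. Stellate cell markers (8 genes, among them *Dcn*) summed to 162, 101 and 308 FPKM in WT hepatocytes, 96.8, 86.2 and 72.8 in *Cdk1* Liv-/- hepatocytes, 284, 282 and 305 in WT whole liver and 415, 382 and 441 in *Cdk1* Liv-/- whole liver, with 2 of 8 lower in hepatocytes and 3 of 8 higher and 1 lower in whole liver. The 3 of 8 higher are again near the share of all genes in whole liver, of which 7.53% were lower.

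The 6 cholangiocyte markers, of which *Spp1* made up most of the sum in each library, summed to 19.6, 14.6 and 30.1 FPKM in WT hepatocytes, 66.8, 124 and 100 in *Cdk1* Liv-/- hepatocytes, 59.4, 62.2 and 45.9 in WT whole liver and 270, 139 and 260 in *Cdk1* Liv-/- whole liver. Among 5 tested genes 4 were called higher in each compartment, where 12.1% of all genes were in hepatocytes and 38% in whole liver, and *Krt19* was called in neither. The defining marker *Cftr* was at or near 0 in the hepatocyte libraries (0 to 0.06 FPKM) and in WT whole liver (0.02 to 0.04 FPKM), and at 0.10 to 0.23 FPKM in *Cdk1* Liv-/- whole liver.

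Blood cell markers are given last, with counts of calls between genotypes. Of all genes 12.1% were higher and 6.61% lower in hepatocytes, and 38% and 7.53% in whole liver. Erythroid markers (10 genes, *Hbb-bs* on top) summed to 149, 110 and 586 FPKM in WT hepatocytes, 73.1, 101 and 25.2 in *Cdk1* Liv-/- hepatocytes, 1110, 1230 and 2170 in WT whole liver and 1170, 1770 and 1460 in *Cdk1* Liv-/- whole liver, with 2 of 10 called lower in hepatocytes and 3 of 10 in whole liver. Neutrophil markers (8 genes, *S100a9* on top) summed to 13.8, 11.3 and 47.9 FPKM in WT hepatocytes, 19.3, 8.87 and 18 in *Cdk1* Liv-/- hepatocytes, 69.7, 42.7 and 66.5 in WT whole liver and 83.2, 301 and 242 in *Cdk1* Liv-/- whole liver, with 0 of 8 called in hepatocytes and 5 of 8 higher in whole liver. Monocyte markers (6 genes, among them *Ly6c2*) summed to between 1.69 and 5.42 FPKM in the hepatocyte and WT whole liver libraries and to 15, 21.1 and 17.4 FPKM in *Cdk1* Liv-/- whole liver, where 5 of 6 were called higher, against 2 of 6 in hepatocytes. B cell markers (6 genes, among them *Cd79b*) lay between 0.71 and 15 FPKM, with 2 of 6 lower in hepatocytes and 3 of 6 lower in whole liver, and T and NK cell markers (6 genes, among them *Cd3g*) between 0.85 and 9.98 FPKM, with 2 of 6 lower in hepatocytes and 0 of 6 called in whole liver.

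**Figure D5:**
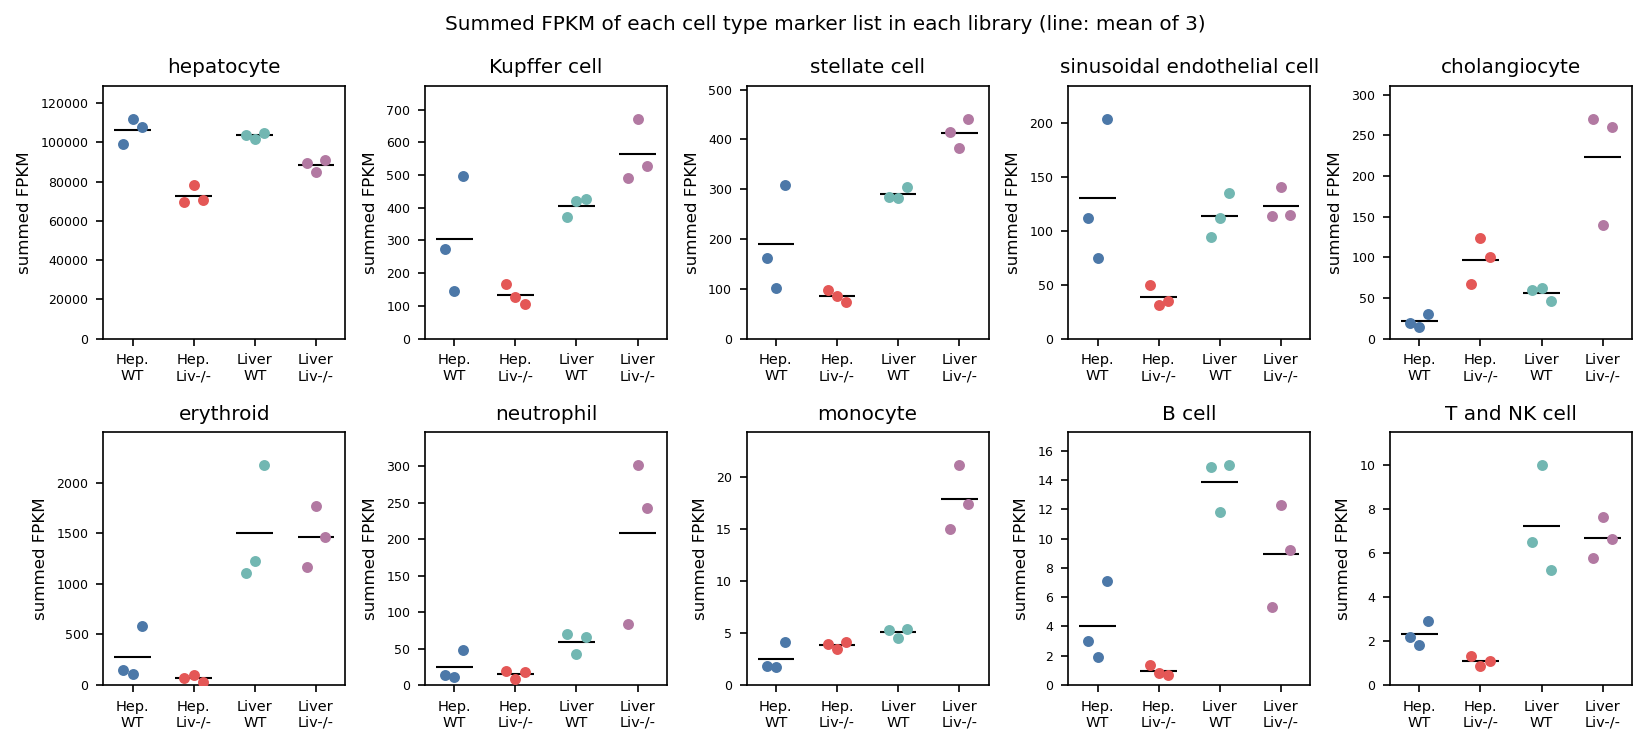
Summed FPKM of each of 10 cell type marker lists on the vertical axes, each starting at 0, with a point for each of the 12 libraries and a line at the mean of 3 in each group. Endothelial markers lie between 31 and 49.8 FPKM in *Cdk1* Liv-/- hepatocytes and between 75.1 and 204 FPKM in WT hepatocytes, and cholangiocyte markers are lowest in WT hepatocytes, at 14.6 to 30.1 FPKM.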

How the data were processed

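PolyA RNA of 12 libraries, 3 in each of 4 groups, was sequenced by the authors with a stranded kit as single-end reads of 75 bp, aligned with STAR and quantified with RSEM 1.2.31 on mm10. The deposited values are FPKM to 2 decimals, not normalized between libraries, for 47069 genes, of which 46488 were matched by Ensembl identifier to GENCODE M21. The members and lists were chosen with earlier results of these data known. Tests used limma 3.58.1 in R 4.3.3 (eBayes with a trend and not robust) on log2(FPKM + 0.5), two-sided, over the 17386 genes with a mean of at least 0.1 FPKM, adjusted by the Benjamini-Hochberg method, and calls used a threshold of 0.1 on the adjusted p. Genotypes were compared within each compartment and compartments within each genotype, on the 6 libraries compared, and the interaction was fitted on all 12. Ratios of FPKM were compared by a two-sided exact permutation test over libraries. Replicate numbers were not taken as pairs. Where 1 library of a group was left out, the remaining ones were assumed to vary like the other group.

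Genes named beside the members were set by a rule: of each list of regulators, up to 3 called genes that rose most and up to 2 that rose least or fell in hepatocytes (else in whole liver), every CDK inhibitor, and for *Cdk1*, *Ccnb1* and *Ccnd1* the 5 genes of most alike pattern among those with a mean of at least 1 FPKM. Not each gene so chosen is reported. Among those whose hepatocyte change is not given, the calls of *Ccnd2* and *Anapc11* were lost in 11 of 17 alternatives. Those of *Tfdp2* were lost in 10, of *Wee1* in 9, and of *Ccnf*, *Cdc25c* and *Lin52* in 8. Those of *Lin54* and *Cks1b* were lost in 4 and 3. The genes reported are thus in part the firmer ones. The lists are CDK inhibitors, other cyclins, other CDKs, CDK phosphorylation and activation, cyclin and inhibitor destruction, retinoblastoma and MuvB, and Greatwall and PP2A. Markers of 10 cell types and the sex-linked genes were summed in each library.

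Read counts were not used here. Depth was estimated in each library from the steps between FPKM of at most 0.5 on transcripts of 300 to 900 bp, where 56.2% to 63.2% of values lay within 0.1 of a whole number of reads. At 34.7 to 49.9 reads for 1 FPKM on 1 kb, genes near 0.1 FPKM rest on few reads. Alternatives were other pseudocounts (0.1 and 1), no filter or a filter at 1 FPKM, median-ratio size factors, FPKM rescaled to the same sum, a log2 fold change of at least 1 as a further demand, an adjusted p of at most 0.05, the replicate number as a block, 1 fit of all 12 libraries, a two-sample test with q-values (the kind of test the study's methods name, on the genes tested here and not on the study's own set), and leaving out each library in turn. Promoters are RefSeq stretches on GRCm38.p6, and exon positions are from GENCODE M21. Tables were made with Python 3.11.15, pandas 2.3.3 and numpy 2.4.6, and figures with matplotlib 3.10.9. The tests were tested on simulated data, of which no outcome is given here.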

Additional observations from a re-analysis of the deposited data

Results flagged for a closer look

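Of 86 tested genes, the 10 members and those of the 7 lists, the change with genotype differed between isolated hepatocytes and whole liver in 5 by the test of that difference. That is 5.81%, where 9.85% of all 17386 genes were called (2.35% higher and 7.49% lower). Which share is larger depends on the setting. With size factors it was 8.14% against 5.91% (3.09% higher and 2.82% lower), without WT whole liver replicate 1 it was 0% against 0.449%, without WT hepatocyte replicate 2 it was 11.6% against 15.2% and without *Cdk1* Liv-/- hepatocyte replicate 3 it was 10.5% against 5.47%. *Cdk4* was at a log2 change of -0.45 in hepatocytes and 0.46 in whole liver, a difference of -0.91 (adjusted p = 0.0544 from limma), which was not called without WT whole liver replicates 1 (-0.86) or 2 (-0.90). *Cdkn2b* rose less in hepatocytes than in whole liver, by 0.43 against 1.12, a difference of -0.69 (adjusted p = 0.0406), not called without WT whole liver replicate 1 (-0.72), without both libraries that stand apart (-0.64) or with a pseudocount of 0.1. Its WT levels are near 0, so these sizes rest on the pseudocount: over the alternatives they ran from 0.24 to 1.27 in hepatocytes, from 0.70 to 2.27 in whole liver and from -1 to -0.46 for the difference. *Mastl* rose more in hepatocytes, by 1.49 against 0.72, a difference of 0.77 (adjusted p = 0.0697). It was not called without WT hepatocyte replicate 3 (0.67), nor without WT whole liver replicates 1 (0.74), 2 (0.74) or 3 (0.83), nor without *Cdk1* Liv-/- whole liver replicates 1 (0.76), 2 (0.76) or 3 (0.80), nor without both libraries that stand apart (0.70), with the replicate number as a block, with no filter or with a pseudocount of 0.1. The list genes *Cdk10* (a difference of -0.39, adjusted p = 0.0656) and *Ppp2r1a* (a difference of -0.45, adjusted p = 0.0638) are outside the rule for named genes and were chosen after their values were seen. *Cdk10* was at -0.18 in hepatocytes and 0.21 in whole liver, and *Ppp2r1a* at -0.13 and 0.32. Groups of 3 libraries are too small for a search for single far values.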

How the results depend on the processing

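Direction and call held under each of 17 alternatives for *Ccnb1* and *Ccnb2* in both compartments and for *Cdk1* in hepatocytes, and *Cdk1* in whole liver (-1.06 to -0.79) missed only the demand for a change of 1 on the log2 scale. In hepatocytes 3 to 5 of the 10 genes were called. In whole liver, against 8, there were 5 with size factors, 3 with the log2 demand, 9 by q-values from a two-sample test (*Cdk2* joining as higher) and 5 to 8 with each library left out, in a range of 3 to 9. In the interaction, against 1, there were 0 with the log2 demand, 0 with the threshold at 0.05 and 0 to 2 with each library left out, and 1 without both libraries that stand apart, a setting chosen after seeing the data. Between compartments in WT there were 0 to 1 with each library left out. In *Cdk1* Liv-/-, against 3, there was 1 with no filter, 1 with the log2 demand, 1 with the threshold at 0.05 and 1 to 5 with each library left out. With the replicate number as a block there were 4 (hepatocytes), 6 (whole liver), 1 (interaction), 0 (WT) and 1 (*Cdk1* Liv-/-). The numbers have no stated meaning and so were not taken as pairs. Deviations of libraries with the same number correlated at -0.32 to 0.24 across genes. Libraries of different numbers were not correlated, so this range cannot decide whether the numbers mark pairs. The log2 difference of the cyclin ratio was 3.39 in hepatocytes and 2.10 in whole liver with the B-type cyclins alone, 2.17 and 1.33 with *Ccna2* alone, and 2.95 to 3.10 and 1.79 to 1.97 with each library left out.

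The sign turned for genes that were not called. With size factors *Cdk2* was at -0.05 in hepatocytes, -0.06 in whole liver and 0.01 in the interaction, and in whole liver *Cdkn2d* was at 0.00, *Lin54* at -0.03 and *Lin52* at -0.06. Between compartments in *Cdk1* Liv-/-, size factors turned *Cdk2* from -0.24 to 0.01 and *Cdk6* from -0.12 to 0.12. With FPKM rescaled to the same sum *Cdk6* was at 0.01 in hepatocytes and *Ccnd2* at 0.00 in whole liver. With each library left out, hepatocyte values ran from -0.06 to 0.19 for *Cdk2*, -0.16 to 0.14 for *Cdk6*, -0.06 to 0.50 for *Ccne1* and -0.01 to 0.52 for *Ccne2*, whole liver values from -0.08 to 0.05 for *Ccnd2*, -0.16 to 0.07 for *Tfdp2* and 0.00 to 0.21 for *Lin52*, and the interaction of *Cdk2* from -0.21 to 0.04. The cause of these turns, and of the counts that moved, was not tested. Depth limits genes near 0.1 FPKM, such as *Cdkn2b* in WT, more than the 10 members.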
